A study of Mus musculus with 58 samples.

Results

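Sfmbt2 encodes a Polycomb-group protein with malignant brain tumour (MBT) repeats that bind methylated lysine, and the mouse placenta needs its paternal copy. It was taken as 1 gene row of 24077 in the deposited count table and followed through 14 RNA sequencing libraries of fully grown oocytes (FGO), of morulae and of the extraembryonic ectoderm (ExE). It was chosen by its reads in knockout and control oocytes and by its maternal share in each ExE library, as earlier results of these libraries had shown them. Those values are therefore given as a description with no test. Its morula counts were among the values taken in for the choice, though no morula difference was named as a reason. The choice was made with earlier results of these data known. The morula p-values are therefore given as a description and are not an independent test.

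The FGO groups were 2 libraries of Pcgf1/6 double knockout (KO) and 2 of wild-type control (CTR) oocytes of strain B6.129. The morula groups were 2 libraries with a maternal knockout of both genes (matKO) and 2 CTR libraries, and the ExE groups were 4 matKO and 2 CTR libraries. All embryos had B6.129 as mother and PWK as father, as the strain labels are written, so reads over strain variants tell the maternal from the paternal allele. A matKO embryo therefore still carries paternal copies of Pcgf1 and Pcgf6 from PWK. The labels name no Cre driver, no deleted exon, no age of the mothers and no number of oocytes or embryos per library. Nothing in them says that libraries of a group came from separate animals, so the p-values measure the spread between these libraries, which may be technical. RNA of the series' reciprocal B6 and PWK morulae and its chromatin libraries were not used here.

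Noncanonical imprinting is silencing of the maternal allele that is set up in the oocyte by histone marks of the Polycomb complexes, H2AK119ub1 and H3K27me3, without methylation of the DNA. The maternal allele stays silent after fertilization, and at a few genes, Sfmbt2 among them, the silence lasts in the trophoblast lineage that forms the placenta. PCGF1 and PCGF6 belong to variant forms of Polycomb repressive complex 1 (PRC1), which places H2AK119ub1. ExE is the trophoblast tissue next to the epiblast, and it holds trophoblast stem cells.

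Sfmbt2 lies on chromosome 2 at 10370440 to 10595253 on the plus strand (mm10, RefSeq annotation of GRCm38.p6) and spans 224814 bases. The RefSeq table gives it 2 promoter windows, each from 250 bases before to 50 bases after an annotated transcript start. They are shown because variant PRC1 is known to be drawn to CG-rich starts of genes. Every CG is in capitals.
Sfmbt2 first start, chr2:10370201-10370500, plus strand: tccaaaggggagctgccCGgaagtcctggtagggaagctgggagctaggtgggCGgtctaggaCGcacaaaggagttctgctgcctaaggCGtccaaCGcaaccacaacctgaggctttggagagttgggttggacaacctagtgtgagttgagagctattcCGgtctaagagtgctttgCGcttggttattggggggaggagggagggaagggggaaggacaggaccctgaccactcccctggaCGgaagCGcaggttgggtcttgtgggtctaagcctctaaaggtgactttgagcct
Sfmbt2 second start, chr2:10372186-10372485, plus strand: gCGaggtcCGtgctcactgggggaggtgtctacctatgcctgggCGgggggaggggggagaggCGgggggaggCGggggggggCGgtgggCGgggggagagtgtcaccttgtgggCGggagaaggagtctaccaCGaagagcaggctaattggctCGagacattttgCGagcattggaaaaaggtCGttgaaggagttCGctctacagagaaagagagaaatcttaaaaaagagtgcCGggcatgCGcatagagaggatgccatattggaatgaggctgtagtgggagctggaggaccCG
The first window holds 9 CG, and 45.8% of 32851 mouse promoter windows of the same length hold at least as many. The second window holds 16 CG, a number reached by 33.0% of windows, against a median of 7. CACGTG, the E-box bound by MGA and MAX of the PCGF6 complex, was in neither window on either strand, and 7.15% of all windows hold it. TTCCCGC, a site of the E2F family, was in neither window and is in 4.60% of all windows. GCCAT, the core of the site of YY1, a DNA-binding relative of the fly protein that partners Sfmbt, had 1 match in the second window and overlapped no match of the other motifs, and it is in 40.5% of all windows.

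Total counts were 19805264 to 26364085 in FGO libraries. Morulae had 1299715 to 1685510 and ExE had 3397585 to 4361832 per library, where only reads assigned to a parent are counted. The edited genes checked the labels. Pcgf1 had 34.9 and 22.8 counts per 1000000 counts of the library (CPM) in KO oocytes against 1406 and 1100 CPM in CTR oocytes, a log2 difference of -5.56 (SE 0.24, edgeR quasi-likelihood test, adjusted p = 1.96e-05). Pcgf6 kept more reads, with 177 and 220 CPM in KO oocytes against 396 and 429 CPM in CTR oocytes (log2 -1.14, SE 0.19, adjusted p = 0.0102). In ExE the maternal share of Pcgf6 reads was 35.5%, 43.8%, 26.0% and 42.0% in matKO replicates 1 to 4, against 65.6% and 58.1% in CTR (allelic log2 1.26 towards the paternal allele, SE 0.14, adjusted p = 4.71e-05). With equal offsets for both alleles the shift was as large (1.50) and did not pass the threshold (adjusted p = 0.194). All 10 oocyte markers were detected in every FGO group. In ExE, 10 of 12 markers of ExE and trophoblast stem cells were detected, and Bmp4 and Rhox5 were at 0 in both groups. ExE matKO replicate 3 stood apart in its alleles. Its maternal reads were 35.1% of all autosomal reads, and 31.5% to 40.1% over the 19 autosomes, while the other 5 ExE libraries had 51.2% to 51.5%. Results that rest on maternal shares are therefore read against the autosomal share of the same library.

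By group mean, CTR oocytes had the lowest level of Sfmbt2, followed by KO oocytes, morula matKO, morula CTR, ExE CTR and ExE matKO. The oocyte values come from whole-gene counts and the embryo values from allele-assigned reads, so levels on both sides of fertilization are not strictly on one scale. The morula groups next to each other in this order overlapped. No library of ExE overlapped with any of the morulae, and the ExE matKO libraries all lay above the ExE CTR libraries.

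**Figure D1:**
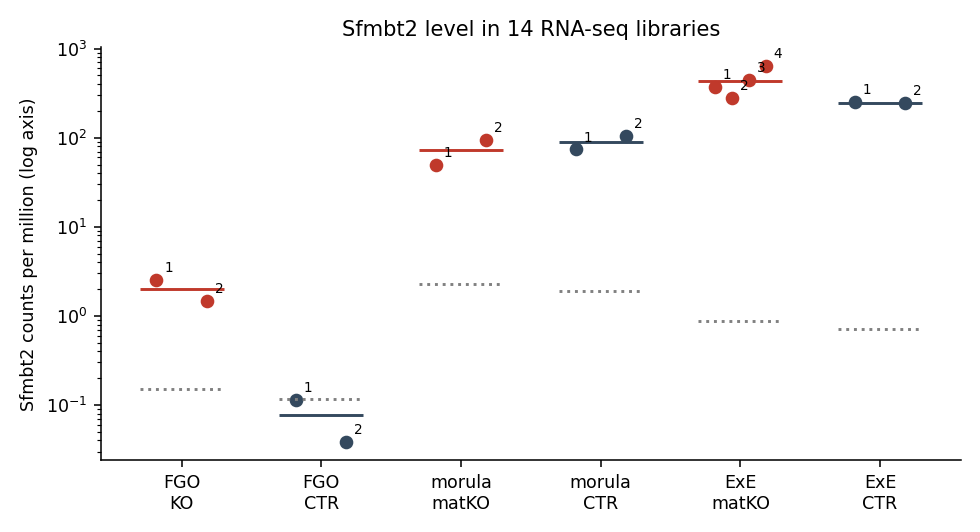
Sfmbt2 level in CPM (log axis) in each library, labelled by replicate number, with knockout groups in red and CTR groups in dark blue. Solid lines are group means and dotted lines the level of 3 counts. CTR oocytes lie at or below 3 counts, and KO oocytes lie at 1.46 and 2.54 CPM.

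Sfmbt2 was nearly silent in CTR oocytes and was detected in both KO libraries. The KO libraries had 56 and 29 reads, which is 2.54 and 1.46 CPM. The CTR libraries had 3 and 1 reads, which is 0.114 and 0.0389 CPM. The KO mean was 2.00 ± 0.764 CPM and the CTR mean 0.0763 ± 0.0530 CPM (SD, n = 2 each), and no KO library overlapped with a CTR library. For how many of all genes this holds was not computed. A count of 3 reads corresponds to 0.136 to 0.151 CPM in KO and 0.114 to 0.117 CPM in CTR libraries. Summed over libraries, 85 KO reads stood against 4 CTR reads, a depth-corrected ratio of 26.5 with a 95% exact interval of 9.97 to 99.4, which covers counting error only. The fitted log2 difference was 4.50 (SE 0.68), given as a description.

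Other genes were tested in the same fit. Of 13459 genes, 7.22% were called at an adjusted p under 0.05 with edgeR, with 5.35% higher and 1.87% lower in KO. A list of 40 other genes reported to be imprinted through maternal H3K27me3 had 25 members with enough reads to test. Of these, 10 rose and 0 fell, with a median log2 difference of 1.97 against 0.0039 over all genes tested. Members near 0 in CTR enter the test only through reads in KO and could hardly be called lower, so the 25 are not the whole list. The count of rises and the median depend in part on such members. Rbms1, an RNA-binding protein gene, had 46.4 and 37.7 CPM in KO oocytes against 3.34 and 3.58 CPM in CTR oocytes (log2 3.50, SE 0.21, adjusted p = 0.000115). Sall3, a zinc finger gene, rose by 6.00 (SE 0.46), and Hes1, a repressor of the Notch pathway, rose by 3.84 (SE 0.51), both in log2. Each had 5 and 13 reads in CTR oocytes, and both are given with no p because these reads were so few. Bbx, an HMG-box gene, had 43.0 and 35.4 CPM in KO oocytes against 7.74 and 4.39 CPM in CTR oocytes (log2 2.59, SE 0.27, adjusted p = 0.00154).

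Among 4 other noncanonical imprinted genes that keep their imprint in trophoblast, the oocyte reads were few. Gab1, an adaptor of receptor signalling, had 42 and 18 reads in KO oocytes and 6 and 11 reads in CTR oocytes (log2 1.97, SE 0.59). It was the only one with enough reads for the fit, and it is given with no p because its CTR reads were so few. Without the filter on low counts its log2 was 1.96. Gab1 is also a member of the list of 40 genes above, so that list and these genes are not separate sets. Jade1, a subunit of a histone acetyltransferase complex, had 16 and 4 reads in KO and 1 and 2 in CTR oocytes. Smoc1, a secreted calcium-binding protein gene, had 5 and 33 reads in KO and 3 and 6 in CTR oocytes. Slc38a4, an amino acid transporter of the placenta, had 0 and 1 reads in KO and 0 and 1 in CTR oocytes. Of these 4, Gab1 and Jade1 had more reads in both KO libraries than in either CTR library, as Sfmbt2 had, and Smoc1 and Slc38a4 overlapped. The share of all genes with more reads in both KO libraries was not computed, so this is a description only.

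The list of genes imprinted through DNA methylation had 29 of 39 members tested in oocytes, of which 5 rose and 0 fell, where 5.35% of all genes tested were called higher and 1.87% lower. The list's median log2 difference was 0.06, against 0.0039 over all genes tested. Here too, members near 0 in CTR enter the test through their reads in KO. Ascl2, for example, had 224 and 95 reads in KO oocytes and 9 and 4 reads in CTR oocytes. Ascl2, a trophoblast transcription factor, rose by 4.75 in log2 (SE 0.51), given with no p because its CTR reads were so few. Phlda2, which limits placental growth, rose by 2.79 in log2 (SE 0.19, adjusted p = 0.000234 by edgeR). Zdbf2 rose by 4.19 (SE 0.29, adjusted p = 0.000234) and Cd81, a tetraspanin, by 2.31 (SE 0.33, adjusted p = 0.00557), both in log2 by edgeR. Relatives and partners of SFMBT2 were counted in the same way. Of 8 other genes with MBT repeats, 8 were tested and 0 were called, with a median log2 difference of 0.02, and 0 had an unadjusted p under 0.05, against 21.5% of all genes tested. Of the 3 genes of the YY1 family, 3 were tested and 0 were called. With 7.22% of all genes called, counts of 0 in lists this short say nothing particular about them. Sfmbt1, the closest relative, had 215 and 181 CPM in KO oocytes and 193 and 213 CPM in CTR oocytes (log2 -0.14, SE 0.14, adjusted p = 0.633). Markers of granulosa and cumulus cells, which surround the oocyte, summed to 68.2 and 62.6 CPM in KO and 68.7 and 75.05 CPM in CTR oocytes, with 11 of 12 genes detected in KO, where Amh was at 0, and 12 in CTR. Their part in the reads of Sfmbt2 was not tested.

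In morulae the maternal allele of Sfmbt2 had reads in both matKO libraries and next to none in CTR. The matKO libraries had 11 maternal of 64 reads and 19 maternal of 128 reads. The CTR libraries had 1 maternal of 125 reads and 0 maternal of 167 reads. The maternal share was 17.2% (95% exact Clopper-Pearson interval 8.90% to 28.7%) and 14.8% (9.18% to 22.2%) in matKO, against 0.8% (0.0203% to 4.38%) and 0% (up to 2.18%) in CTR. The libraries of the groups did not overlap, and the share of all genes without overlap was not computed. Pooled over libraries the share was 15.6% in matKO and 0.342% in CTR. These were bulk libraries, in which a maternal allele active in few cells and one weakly active in many cannot be told apart.

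The shift towards the maternal allele had a log2 of -5.45 (SE 0.71), where negative values mean a higher maternal share in matKO, and it rests on the 1 maternal read in CTR. Its unadjusted p was 0.000252 and its adjusted p 0.0921 over 6223 genes (edgeR quasi-likelihood test), so it missed the threshold, and 0.0321% of genes passed it. Over the alternative settings the adjusted p ranged from 0.0402 to 0.301. The log2 ranged from -7.81 without CTR replicate 1, which held the 1 maternal read, to -4.39 without CTR replicate 2. An exact two-sided permutation test of the share over libraries gave p = 0.333, the smallest that 2 libraries against 2 can give. Relative to all autosomal reads of the same allele, Sfmbt2 had 17.02 and 28.6 maternal reads per 1000000 in matKO against 1.18 and 0 in CTR. The paternal allele had 85.3 and 167 reads per 1000000 in matKO against 155 and 222 in CTR, and these overlapped. In both matKO libraries the maternal reads stayed well below the paternal reads.

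The total level in morulae was 49.2 and 94.97 CPM in matKO and 74.2 and 105 CPM in CTR. The means were 72.1 ± 32.3 CPM in matKO and 89.7 ± 21.9 CPM in CTR (SD, n = 2 each), and the groups overlapped. The log2 difference was -0.27 (SE 0.33, adjusted p = 0.688 by edgeR, with 0.132% of 9063 genes called, 0.0221% higher and 0.11% lower). Its sign turned without CTR replicate 2 (0.022) or without matKO replicate 1 (0.12).

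**Figure D2:**
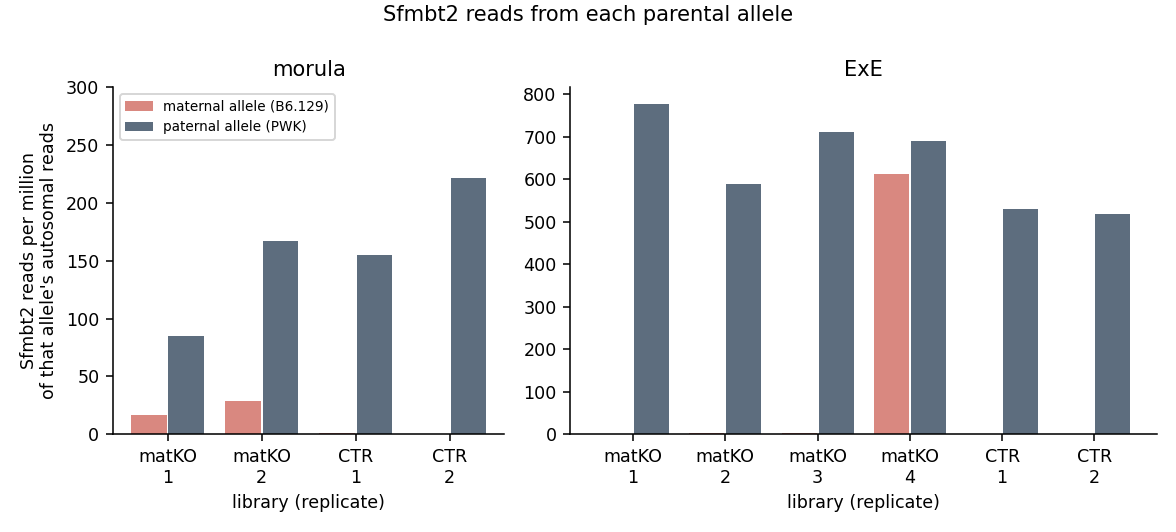
Sfmbt2 reads from the maternal (red) and paternal (grey) allele in each morula and ExE library, per 1000000 autosomal reads of that allele, with matKO libraries left of CTR libraries and separate scales for the 2 stages. Maternal bars are visible in both morula matKO libraries and, in ExE, in matKO replicate 4.

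Of the 4 other noncanonical imprinted genes, Jade1, Gab1 and Smoc1 had maternal reads in every morula library and Slc38a4 had few. For Jade1 the maternal share was 37.8% and 43.2% in matKO against 20.4% and 20.3% in CTR (allelic log2 -1.46, SE 0.25, adjusted p = 0.168). For Gab1 it was 47.3% and 41.8% in matKO against 31.7% and 39.8% in CTR (allelic log2 -0.55, SE 0.20, adjusted p = 0.544). Smoc1 had 4 maternal of 20 and 8 of 25 reads in matKO, against 9 of 30 and 12 of 31 reads in CTR, so its share was not higher in matKO, and it had too few reads for the allelic fit. Slc38a4 had 2 maternal of 40 and 1 of 38 reads in matKO and 2 of 84 and 0 of 82 reads in CTR (allelic log2 -1.67, SE 1.29, adjusted p = 0.810, all by edgeR). Of the wider list, 14 of 40 genes were tested for the allelic shift, 0 were called, 9 had an unadjusted p under 0.05 (8.61% of all genes tested did), and the median was -1.40 against 0.02 over all genes. For total expression 23 of the 40 were tested and 1 rose, Bbx, with 428 and 459 CPM in matKO and 232 and 176 CPM in CTR (log2 1.16, SE 0.14, adjusted p = 0.0490). Among the MBT-repeat genes 5 were tested for total expression and 0 were called. Of these, Sfmbt1 had 13.1 and 11.9 CPM in matKO and 38.6 and 29.0 CPM in CTR (log2 -1.39, SE 0.38, adjusted p = 0.129). Of the genes imprinted through DNA methylation, 16 were tested for total expression and 9 for the shift, with 0 calls in both. An unadjusted p under 0.05 was reached by 5 of the 16, where 19.8% of all genes did, and by 0 of the 9. The YY1 family had 2 tested genes and 0 calls in both.

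In ExE, where Sfmbt2 was highest, its maternal reads were at the CTR level in 3 matKO libraries and close in number to the paternal reads in the other one. The matKO libraries had 3 maternal of 1514 reads, 4 of 1119, 3 of 1664 and 1049 of 2161 in replicates 1 to 4. The CTR libraries had 3 maternal of 1059 reads and 3 of 1072. The maternal share was 0.198%, 0.357%, 0.180% and 48.5% in matKO, against 0.283% and 0.280% in CTR. The interval of the share in matKO replicate 4 was 46.4% to 50.7% (exact Clopper-Pearson, counting error only), and no library lay between it and the rest. The upper ends of the intervals of the other 3 matKO libraries were 0.578%, 0.913% and 0.526%, so a maternal share as high as that of the morula matKO libraries lies outside them. No test is given, because this pattern was used to choose the gene. The allelic log2 was -4.82 with an SE of 5.09 over all libraries and -0.019 without matKO replicate 4.

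Relative to autosomal reads of the same allele, replicate 4 had 613 maternal and 691 paternal reads per 1000000. The other 3 matKO libraries had 1.47 to 2.37 maternal reads per 1000000, and the CTR libraries had 1.42 and 1.38. Paternal reads were 778, 588, 711 and 691 per 1000000 in matKO replicates 1 to 4, against 529 and 519 in CTR. All 4 matKO libraries were above both CTR libraries on the paternal allele, and replicate 4 lay within the range of the others. The share of all genes with this order was not computed. Its maternal reads came beside a paternal level inside the range of the other matKO libraries.

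The total level was 370, 280, 449 and 636 CPM in matKO and 251 and 246 CPM in CTR. The means were 434 ± 152 CPM in matKO (SD, n = 4) and 248 ± 3.70 CPM in CTR (SD, n = 2), and the groups did not overlap. The fitted log2 difference was 0.77 (SE 0.29), again as a description, and 0.54 without matKO replicate 4. No gene of 8386 was called by edgeR in this comparison (0%), 1161 had an unadjusted p under 0.05, and the DESeq2 Wald test called 213. Summed levels of several marker lists did not overlap between the same groups. The share of all genes without overlap was not computed, so these lists have no background to be read against. The summed level of the 12 markers of ExE and trophoblast stem cells was 2419 to 3492 CPM in matKO and 1637 to 2256 CPM in CTR. The 8 markers of the ectoplacental cone, the trophoblast next to ExE, summed to 447 to 2439 CPM in matKO and 3022 to 5481 CPM in CTR. Of these, 6 were detected, Prl3d1 and Prl2c2 were at 0, and Ascl2, Phlda2 and Fosl1 are also in the imprinted lists. The 8 trophectoderm markers, 7 of them detected and Krt7 at 0, summed to 2571 to 5367 CPM in matKO and 7813 to 8289 CPM in CTR. Their median went the other way, at 47.0 to 59.3 CPM in matKO and 16.3 to 26.5 CPM in CTR. The 8 pluripotency markers summed to 80.5 to 309 CPM in matKO and 9.40 to 47.9 CPM in CTR. Pou5f1 and Tdgf1 were at 0 in both groups and Nanog was at 0 in CTR. The median of these markers overlapped, at 0.244 to 0.675 CPM in matKO and 0 to 0.830 CPM in CTR. The 9 visceral endoderm markers summed to 8.91 to 30.1 CPM in matKO and 2.29 to 4.27 CPM in CTR, with Apoa1 and Hnf4a at 0 in both groups and 4 more, Ttr, Apoe, Cubn and Sox17, at 0 in CTR. The 10 oocyte markers summed to 0.883 to 2.16 CPM in matKO and 3.08 to 3.67 CPM in CTR, with 6 of them at 0 in matKO and 7 in CTR. Markers of epiblast and mesoderm and of blood and endothelium overlapped between the groups. Some genes stand in more than 1 of these lists. The part of these cell types in the higher Sfmbt2 level was not tested.

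Markers of maternal tissue and the maternal share of whole chromosomes were read beside the maternal reads. The 13 markers of decidua and maternal stroma summed to 19.3, 2.00, 1.08 and 0 CPM in matKO replicates 1 to 4, against 0.711 and 0.459 CPM in CTR. All 13 were at 0 in replicate 4, the library with the maternal Sfmbt2 reads. Over the matKO group 9 of the 13 were at 0, Dcn, Lum, Col1a1 and Vim among them, and 9 were at 0 in CTR. The embryo columns hold only reads assigned to a parent, and Pou5f1 was at 0 in every morula library, so a 0 here can also mean that no read could be assigned. The part of mother-derived cells in the maternal reads was not tested. Replicate 1 held 77 maternal and 2 paternal reads of these markers, and it had 3 maternal reads of Sfmbt2. The autosomal maternal share of replicate 4 was 51.5%, against 51.4% in both CTR libraries, and on chromosome 2 it was 50.4%, against 49.7% and 50.0% in CTR. The X chromosome had a maternal share of 99.9%, 56.9%, 61.2% and 99.8% in matKO replicates 1 to 4, against 95.8% and 96.4% in CTR. The X-linked Xist had a maternal share of 100%, 50%, 12.9% and 100% in matKO, against 7.30% and 5.19% in CTR. The part of the sex of the embryos in these X values, in the ExE levels and in the maternal reads of Sfmbt2 was not tested.

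**Figure D3:**
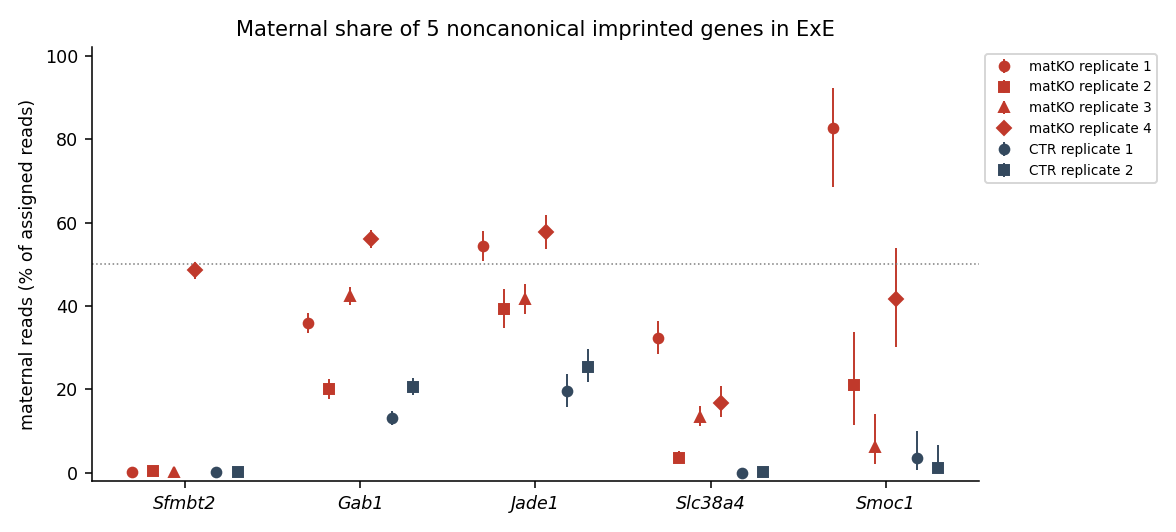
Maternal reads as a percentage of assigned reads for Sfmbt2 and 4 other noncanonical imprinted genes in each ExE library, with 95% exact intervals. Red symbols are matKO and dark blue symbols CTR libraries, and the dotted line marks 50%. Sfmbt2 lies near 0% in all libraries but matKO replicate 4, at 48.5%, while Jade1 lies higher in every matKO library than in either CTR library.

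The other noncanonical imprinted genes showed graded maternal shares in the same libraries. For Jade1 the share was 54.5%, 39.3%, 41.6% and 57.9% in matKO replicates 1 to 4, against 19.6% and 25.5% in CTR. For Slc38a4 it was 32.4%, 3.60%, 13.5% and 16.9% in matKO, against 0% and 0.296% in CTR. In both genes all 4 matKO libraries lay above the CTR libraries, and the share of all genes with this order was not computed. For Gab1 the share was 35.9%, 20.1%, 42.4% and 56.1% in matKO, against 13.1% and 20.7% in CTR, and replicate 2 overlapped with CTR. For Smoc1 it was 82.6%, 21.1%, 6.33% and 41.7% in matKO, against 3.57% and 1.23% in CTR. These Smoc1 shares come from few reads, 46, 57, 79 and 72 in matKO and 84 and 81 in CTR. Because replicate 3 had few maternal reads over all autosomes, the ratio of maternal to paternal reads was also divided by the autosomal ratio of the same library. On that scale replicate 2 was the lowest matKO library for Gab1, Jade1 and Slc38a4, and replicate 3 for Smoc1. Replicate 1 was the highest for Slc38a4 (0.455) and Smoc1 (4.52), and its Smoc1 value rests on 8 paternal reads. Replicates 3 and 4 were the highest for Gab1 (1.36 and 1.20) and Jade1 (1.32 and 1.29), while Sfmbt2 was at 0.00333 and 0.887 in the same libraries. The shifts of these 4 genes did not pass the threshold in the fit over all libraries (edgeR, 0.085% of 5885 genes called, 0.051% towards the maternal and 0.034% towards the paternal allele). The allelic log2 was -1.94 for Jade1 (SE 0.37, adjusted p = 0.518), -6.81 for Slc38a4 (SE 2.09, adjusted p = 0.725), -1.92 for Gab1 (SE 0.89, adjusted p = 0.834) and -4.54 for Smoc1 (SE 1.90, adjusted p = 0.783). The shift of Slc38a4 passed with equal offsets for both alleles (adjusted p = 5.99e-13), and that of Jade1 without matKO replicate 2 (adjusted p = 3.45e-10). Whether Sfmbt2 differs from these genes in how its maternal reads are spread over libraries was not tested.

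Their total levels did not pass the threshold either. The log2 difference was 0.63 for Jade1 (SE 0.22, adjusted p = 0.277), 0.34 for Gab1 (SE 0.37, adjusted p = 0.733), -0.20 for Slc38a4 (SE 0.28, adjusted p = 0.794) and -0.21 for Smoc1 (SE 0.30, adjusted p = 0.794, all by edgeR). Of the wider list, 21 of 40 genes were tested for total expression and 12 for the shift, with 0 calls in both. An unadjusted p under 0.05 was reached by 2 genes for total expression, where 13.8% of all genes did, and by 3 genes for the shift, where 6.71% did. Of the genes imprinted through DNA methylation, 24 and 19 were tested, with 0 calls, and 7 and 4 had an unadjusted p under 0.05. The MBT-repeat genes had 5 and 3 tested and 0 called, and 2 and 2 had an unadjusted p under 0.05. The YY1 family had 2 and 1 tested and 0 called, and 0 in both had an unadjusted p under 0.05. Sfmbt1 had a maternal share of 33.9%, 33.3%, 27.6% and 31.9% in matKO replicates 1 to 4, against 38.5% and 69.2% in CTR (allelic log2 0.90, SE 0.44, adjusted p = 0.742).

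The same shares were read for the genes around Sfmbt2. The 5 nearest protein-coding genes on each side lie between 114 and 322 kb before its start and between 577 and 1110 kb past its end. Taf3, a subunit of the general factor TFIID, Kin, a DNA-binding protein gene, and Rbm17, a splicing factor gene, had at least 50 assigned reads in every ExE library. Their pooled maternal share was 45.9%, 48.6%, 31.1% and 47.5% in matKO replicates 1 to 4, against 47.2% and 46.4% in CTR. Replicate 4 (interval 45.7% to 49.3%) was within the spread of the others, and replicate 3 was low, as it was over all autosomes. Atp5c1, a subunit of the mitochondrial ATP synthase, had 40 of 61, 42 of 68, 28 of 67 and 33 of 46 maternal reads in matKO, against 36 of 66 and 49 of 89 in CTR. Its share was highest in replicate 4, at 71.7% (interval 56.5% to 84.0%). Pfkfb3, a regulator of glycolysis, had 19 of 33, 24 of 45, 19 of 56 and 36 of 83 maternal reads in ExE matKO, against 21 of 39 and 19 of 28 in CTR. Itih5, which stabilizes the extracellular matrix, had 21 of 26, 49 of 62, 12 of 47 and 4 of 11 maternal reads in matKO, against 56 of 83 and 78 of 91 in CTR. None of the 10 genes was called with the filter on low counts and no replicate block. The lowest adjusted p was that of Il2ra, a cytokine receptor gene, in oocytes (log2 -0.75, SE 0.22, adjusted p = 0.0777), and without that filter Il2ra was called lower in KO (log2 -0.76, adjusted p = 0.0476).

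In morulae, a long noncoding RNA gene next to Sfmbt2 had maternal reads in the same libraries. Gm13261 lies on the minus strand of chromosome 2 at 10327340 to 10365161 and starts 5279 bases before Sfmbt2. It was singled out after its values were seen, so they carry no test. It had 21 maternal of 60 reads and 14 of 85 in matKO morulae, against 0 of 67 and 0 of 78 in CTR morulae. Its total level was 46.2 and 63.1 CPM in matKO and 39.8 and 49.1 CPM in CTR, and it had 0 reads in all oocyte and ExE libraries. Prkcq, a protein kinase gene 577 kb past the end, had 17 and 28 reads in matKO and 12 and 4 in CTR morulae, with 0 maternal reads in all of them (log2 1.83 for the total, SE 0.64, adjusted p = 0.186 by edgeR). Pfkfb3 had 15 of 31 and 11 of 29 maternal reads in matKO morulae, against 2 of 15 and 4 of 18 in CTR morulae. Taf3, Kin and Rbm17 together had a maternal share of 45.3% and 46.0% in matKO morulae, against 49.1% and 48.6% in CTR morulae.

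**Figure D4:**
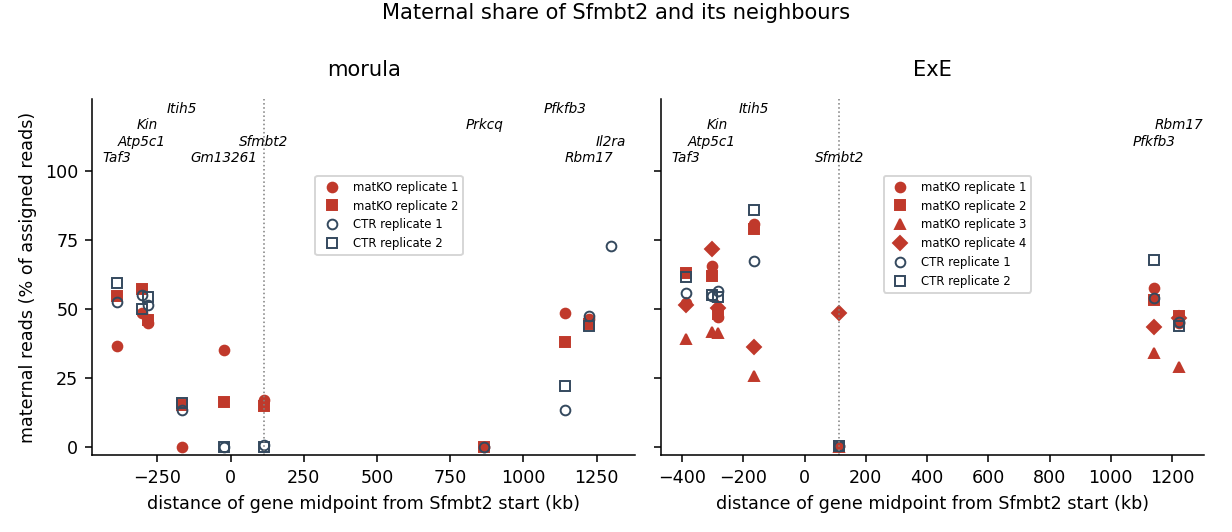
Maternal reads as a percentage of assigned reads for Sfmbt2 and its annotated neighbours, by the distance of each gene's midpoint from the Sfmbt2 start, in morulae (left) and ExE (right), for libraries with at least 10 reads of a gene. Red filled symbols are matKO and open symbols CTR libraries, and the dotted line marks Sfmbt2. In ExE, Sfmbt2 is at 48.5% in matKO replicate 4 and near 0% elsewhere. Rbm17 lies there at 28.9% to 47.4%, below the autosomal share of each library, and Kin at 41.1% to 56.4%.

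A large cluster of microRNA genes lies in an intron of Sfmbt2. The annotation places 72 genes inside Sfmbt2, all of them microRNA genes and all with a row in the table. Of these, 6 had any read, and the reads summed to 15 over all columns. This cDNA kit primes on poly(A) tails and does not capture mature microRNAs, so these counts say nothing about them.

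The table was also searched for genes with the same combination of oocyte and ExE values. Under 0.5 CPM in CTR oocytes lay 11461 genes, and 290 of them had a KO mean of at least 1 CPM and at least 4 times the CTR mean. In ExE, 7149 genes had at least 10 reads in every library, and 64 of these had a mean maternal share under 10% in CTR. This low share alone does not mark imprinting, since Rpl19 and Ptma, genes of a ribosomal protein and a histone-binding protein, were at most 0.292% in every ExE library. Of the 64, 8 had a maternal share of at least 30% in a matKO library, the X-linked Xist among them. The members closest to that limit from above were Ccdc89 with 30.8%, G2e3 with 31.0% and Slc38a4 with 32.4%, and below it lay Ap1s3 with 29.8%. Sfmbt2 was the 1 gene that met all these limits, which were set with its values known, so this describes it and tests nothing.

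Genes most like Sfmbt2 in level were found by Pearson correlation of log2(CPM + 1) over the 14 libraries, among 7115 genes with a mean of at least 5 CPM in ExE. They were Ints5 (r = 0.992), Gng2 (0.992), Lap3 (0.992), Tsen34 (0.992) and Tsfm (0.992). Gng2 had 3.48 to 6.36 CPM in KO oocytes and 1.91 to 2.997 CPM in CTR oocytes, and it reached 330 to 415 CPM in ExE matKO and 290 to 330 CPM in ExE CTR. The points share the jump between oocyte and embryo libraries, which also differ in how reads were counted, and r depends on that jump. With a pseudocount of 0.1, 3 of the 5 names stayed.

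Genes most like Sfmbt2 in maternal share over the 6 ExE libraries were Nudt13 (r = 0.9901), Syne2 (0.974), Ccdc89 (0.942), Syk (0.939) and 4930405A21Rik (0.933), among 1862 autosomal genes with an SD of at least 10 percentage points. Syne2, a nuclear envelope protein gene, had a maternal share of 23.7%, 17.6%, 16.4% and 50.0% in matKO replicates 1 to 4, against 21.8% and 22.2% in CTR, with 42 maternal and 42 paternal reads in replicate 4. Nudt13, a nudix hydrolase gene, had 59.3%, 54.8%, 57.1% and 86.4% in matKO, against 59.3% and 57.9% in CTR, with 19 maternal and 3 paternal reads in replicate 4. These correlations rest on replicate 4 alone and come from few reads.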

How the data were processed

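RNA sequencing of 14 libraries was used, 4 of oocytes, 4 of morulae and 6 of ExE. Per the file headers, the deposited table holds unnormalized counts for each gene, as 1 column per oocyte library and as a maternal and a paternal column per morula or ExE library. Library cDNA came from the SMART-Seq v4 kit with Nextera XT, per the labels' protocols, which does not mark strand. The submitters' processing notes name STAR 2.7.3, RSEM 1.3.1 and Trim Galore 0.6.4 with build mm10 for the series. How reads were assigned to a parent, and with which annotation, is not given in the sources used here, and reads of overlapping genes cannot be told apart.

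Maternal and paternal counts were summed for total expression, which leaves out reads assigned to no parent. CPM (counts per 1000000) were computed on the library totals. Each knockout group was compared with its CTR group in edgeR 4.0.16 (TMM, filterByExpr, robust quasi-likelihood F test) over all genes. A call is a Benjamini-Hochberg adjusted p below 0.05, and log2 differences are knockout over CTR with their SE. The allelic fit used a term per library, an allele term and an allele-by-genotype term with autosomal totals of each allele as offsets, for genes with a mean of at least 20 reads, without X-linked genes in ExE. Its log2 is above 0 where the paternal share is higher in matKO. The fits were also run on simulated counts with the same spread between libraries for every gene. Those counts lack the uneven maternal shares of ExE, so the runs do not bear on them. Intervals are 95% exact intervals, and floors are 3 counts. Both cover counting error only, because PCR copies carry no molecular identifiers here.

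Gene symbols were matched to RefSeq GRCm38.p6, 23975 by symbol and 81 by synonym, and 21 were not matched. Promoter sequences are those of RefSeq in that build. Sfmbt2, the gene lists and the limits were chosen with earlier results of these data known. The genes named are Sfmbt2, the edited genes, 4 other noncanonical imprinted genes, 5 neighbours on each side, up to 4 called members of each list, the genes inside Sfmbt2 as a group, the 5 genes most like it in level and in maternal share, and any gene meeting the same limits on oocyte level and ExE share. Sfmbt1, Gm13261 and a few genes given as examples were added after values were seen. The 4 reciprocal-cross morula samples have no column in the table and were not used here, and 40 chromatin samples were not analysed here. Other scalings, filters, DESeq2 1.42.0, a replicate block and leaving out each library were tried.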

Additional observations from a re-analysis of the deposited data

Results flagged for a closer look

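In a group of 4 libraries, a value is listed here when its gap to the nearest other library exceeds Dixon's 95% critical share of the group's range. Of 21 quantities checked in the ExE matKO group (maternal shares and levels of the 4 other noncanonical imprinted genes and the neighbours, where each library had at least 10 reads for a share or the group a mean of at least 5 CPM for a level, and the autosomal share), 2 did so, and chance gives about 1 in 20. Sfmbt2 was not checked, because its ExE values were used to choose it. The autosomal maternal share was 35.1% in matKO replicate 3, with the gap at 0.983 of the range. The maternal share of Rbm17, a neighbour, was 28.9% in the same replicate 3, with the gap at 0.874 of the range. The low share of Rbm17 thus came in the library whose maternal share was low over all autosomes, while replicate 4 was at 51.5% there.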

How the results depend on the processing

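The rise of Sfmbt2 reads in KO oocytes kept its direction under every setting tried, with a log2 of 3.97 to 5.38 when 1 library was left out. Its log2 difference of total level in morulae ranged from -0.82 to 0.12 when 1 library was left out, with a reversed sign without CTR replicate 2 (0.022) and without matKO replicate 1 (0.12). The maternal share of ExE matKO averaged 12.3%, and 0.245% to 16.4% when 1 library was left out. The share of ExE CTR was 0.266% once reads were divided by the autosomal total of each allele, and its level was 252 CPM on TMM library sizes and 255 CPM on autosomal totals. Both moves exceed the small spread of the 2 CTR libraries.

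Replicate numbers are shared between groups, but nothing says that they pair libraries. The correlation of the differences between same-numbered replicates was 0.251 for oocytes, 0.180 for morulae and 0.243 for ExE, each from 2 pairs. With a replicate block the morula shift of Sfmbt2 passed the threshold (log2 -5.48, adjusted p = 0.0402), its ExE shift was 0.054 because the block leaves replicates 3 and 4 of matKO with no CTR partner, its total ExE difference was 0.35, and Gab1 turned to -0.22 in total ExE level. The block also brought past the threshold Il2ra (log2 -0.75, adjusted p = 0.0311) in oocytes and the ExE shifts of Slc38a4 (-6.64, adjusted p = 0.0245) and Smoc1 (-6.32, adjusted p = 4.67e-05). Gab1 in oocytes had a log2 of 1.94 with the block. The block called 2021 genes in FGO, 310 in morulae, 923 in ExE, 31 for the morula shift and 56 for the ExE shift, against 972, 12, 0, 2 and 5 without it.

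Counts of called genes otherwise moved with the filter, the tool and single libraries. Without a filter on low counts 1630 genes were called in FGO, 489 in morulae and 112 in ExE. DESeq2 size factors gave 54 and the DESeq2 Wald test 192 calls in morulae, and the Wald test 213 in ExE. A minimum mean of 5 reads gave 9 calls for the morula shift. Leaving out 1 library gave 767 to 2029 calls in FGO, 7 to 524 in morulae, 0 to 6 in ExE, 0 to 4 for the morula shift and 4 to 13 for the ExE shift. The most calls came without KO replicate 2 in FGO, without matKO replicate 2 in morulae, without matKO replicate 3 in ExE and without CTR replicate 1 for the morula shift. For the ExE shift, leaving out matKO replicate 2 or 3 gave 13 calls and leaving out matKO replicate 4 gave 12. For the ExE shift of Sfmbt2 the range was -5.69 to -0.019, the last without matKO replicate 4, and for Slc38a4 in total ExE level it was -0.53 to 0.22, the last without CTR replicate 2. The ExE shift of Pcgf6 lost its call with equal offsets (1.50, adjusted p = 0.194) and with the block (1.31, adjusted p = 0.0529), at a log2 no smaller than the 1.26 otherwise found. The cause was not tested for these changes. Depth limits the oocyte values, where CTR had 4 reads of Sfmbt2 in all, and the morula maternal reads.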

Other observations

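Of the 8 genes with a low maternal share in ExE CTR and a share of at least 30% in a matKO library, 2 reached that share in all 4 matKO libraries. They were singled out after their values were seen, and no test is given. Thoc1, a subunit of the THO complex of messenger RNA export, had a maternal share of 50.3%, 53.6%, 37.1% and 50.6% in matKO replicates 1 to 4, against 3.39% and 1.74% in CTR. Platr20, a long noncoding RNA gene, had 47.8%, 45.0%, 35.9% and 50.0% in matKO, against 4.17% and 13.5% in CTR. In both genes replicate 3 was the lowest of the matKO libraries, as over all autosomes. In these genes every matKO library was high, whereas for Sfmbt2 replicate 4 alone was.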
